A study of Homo sapiens with 12 samples.

Results

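A set of 37 genes of B-cell homing, adhesion and motility was examined, taken by gene symbol from the 60603 genes of the count tables. It held 7 receptors for chemoattractants, the selectin ligand SELPLG with 7 integrin subunits, 9 other adhesion molecules, 8 genes of GTPase signalling and 5 actin regulators. Of the 37 genes, 36 passed a filter on low counts and were tested. CCR6, the receptor for CCL20, did not pass, with 0.0424 to 0.449 CPM (the share of a library's scaled gene counts, as counts per 1000000) over the libraries. The libraries came from OCI-LY1 and VAL, established lines of diffuse large B-cell lymphoma, an aggressive tumour of mature B cells. Each line carried the SAR2(LTR) vector with an IRES-ZsGreen1 reporter in 3 forms: the empty vector, the vector with wild-type BCL7A, or the vector with delta27-BCL7A, a splice-site mutant called the mutant here. BCL7A is a subunit of the SWI/SNF (BAF) chromatin remodelling complex. All groups went through 3 rounds of infection at a multiplicity of infection of 2, and each BCL7A form was delivered as both its short and its long isoform. Cells positive for the reporter were sorted by flow cytometry, and RNA was taken on day 10 after transduction in OCI-LY1 and on day 17 in VAL, so line and day are confounded and cannot be told apart. The 6 groups had 2 libraries each of polyadenylated RNA from independent transductions of 1 line, so p-values measure the spread between transductions and not between patients' tumours. Both lines kept their own BCL7A: with the empty vector it stood at 155.1 and 157.4 CPM in OCI-LY1 and at 290.9 and 283.1 CPM in VAL.

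B cells enter lymphoid organs and find their place in them by following chemoattractants through receptors coupled to the inhibitory G protein Gi. CXCR5 and CXCR4 guide them to the follicle and within the germinal centre, CCR7 to the T-cell zone, GPR183 (EBI2) to the outer follicle by way of oxysterols, and S1PR1 towards the exit. Selectin ligands let cells roll on vessel walls, integrins then hold them firmly, and small GTPases such as RAC, with their DOCK exchange factors, drive the actin network that moves the cell.

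Library depth ranged from 21839547 to 24935893 counts in genes. BCL7A, the delivered gene, was at 573.4 to 587.8 CPM in the 4 OCI-LY1 libraries with either BCL7A form and at 453.6 to 490.2 CPM in those of VAL, above the empty vector in every library. Replicates correlated across genes on the log scale at 0.9968 to 0.9978. The widest gap between replicates was in the VAL wild type (chi-square over its degrees of freedom 7.56; the remaining groups 1.52 to 3.22). The share of alignments of low quality was lowest with the mutant in OCI-LY1 (3.92% and 3.01%, against 4.80% to 6.90% in its other libraries), while in VAL the mutant (3.87% and 5.66%) overlapped the rest (4.72% to 6.37%), and its part in the results below was not tested. The 7 B-cell markers summed to 3071 to 3487 CPM in every library, and the 6 T-cell and 5 NK-cell markers to at most 1.80 and 1.27 CPM. In bulk RNA, fewer cells with a transcript and less transcript per cell cannot be told apart.

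Levels are compared between genes per kilobase of annotated exon. With the empty vector the set spanned a wide range, from the GDP dissociation inhibitor ARHGDIB (457 CPM per kilobase in OCI-LY1 and 509.6 in VAL), RHOA (232 and 175) and the actin-binding coronin CORO1A (102 and 230.4) down to transcripts near 0. Among the receptors CXCR4 led in both lines, at 148 and 121 CPM per kilobase. GPR183 (96.1) came next in OCI-LY1 and S1PR4 (18.1), a sphingosine 1-phosphate receptor of lymphocytes, in VAL. Among the integrins ITGAL, the alpha chain of LFA-1, led at 36.1 and 32.0, while its partner chain ITGB2 was at 0.401 in OCI-LY1 and 1.80 in VAL. ITGB1 (24.5) followed ITGAL in OCI-LY1, and ITGB7 (25.7) followed it in VAL.

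**Figure D1:**
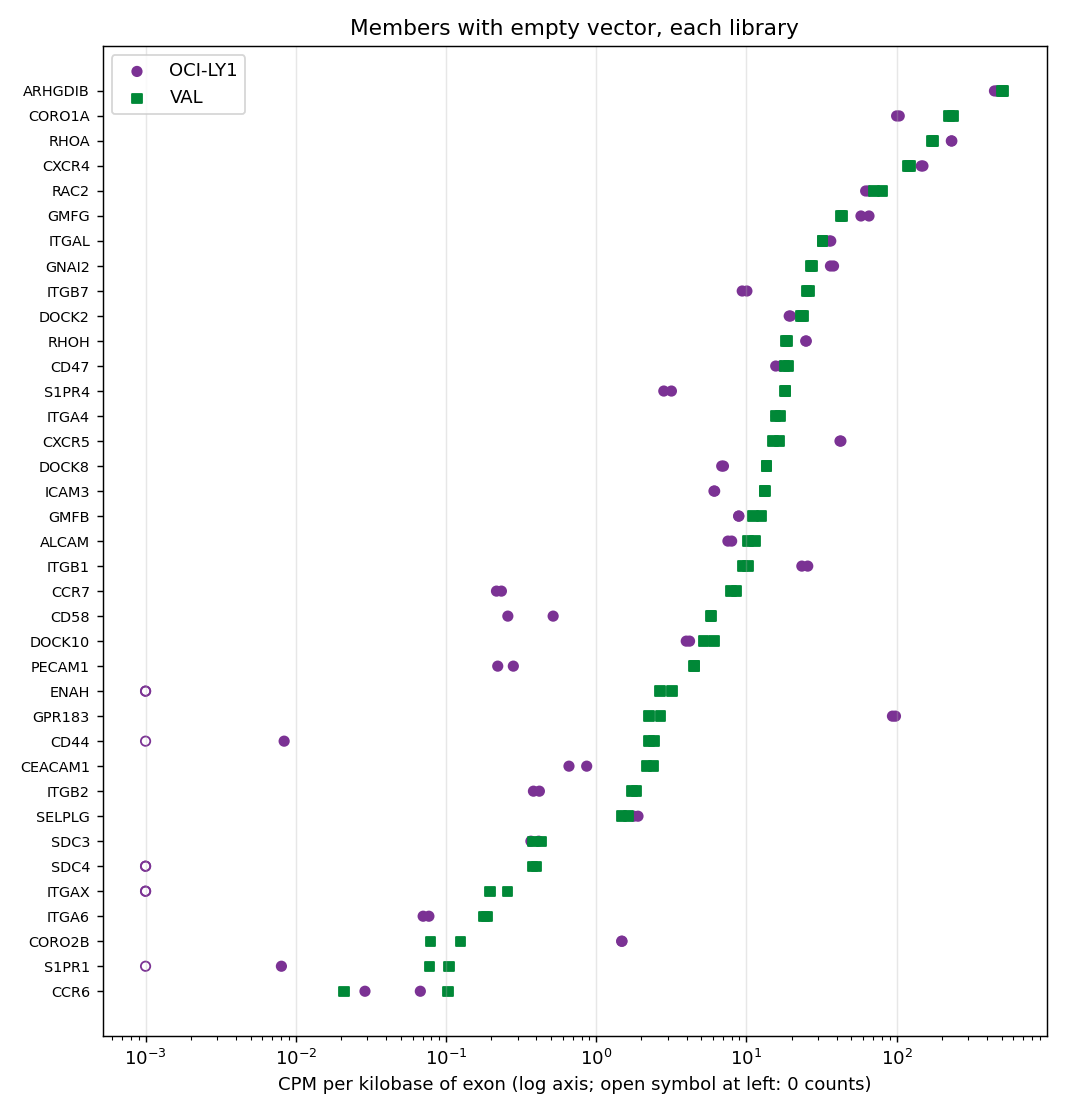
Level of each gene with the empty vector, in CPM per kilobase of exon on a log axis, 1 symbol per library of OCI-LY1 and VAL. ARHGDIB, RHOA and CXCR4 stand high in both lines, and GPR183 is high in OCI-LY1 only. CD44 and ENAH lie at or near 0 in OCI-LY1 and at means of 2.34 and 2.93 in VAL.

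The lines differed in most of these genes. Between VAL and OCI-LY1 with the empty vector, 33 of 36 passed the threshold of an adjusted p under 0.05 in edgeR's quasi-likelihood test, 23 higher and 10 lower in VAL (91.7%, against 73.4% of all 17057 genes tested, with 36.9% higher and 36.5% lower). SELPLG, ITGA4 and SDC3 did not pass. CD44, ENAH, ITGAX, SDC4 and S1PR1, among the 23 higher, came through the filter on low counts only by their VAL libraries. Their direction was thus fixed by the filter and adds no support to that count. CCR7 was at 19.8 and 21.5 CPM in VAL and 0.587 and 0.544 in OCI-LY1, a log2 difference of 5.18 (SE 0.17, edgeR adjusted p 3.81e-25). PECAM1, a homophilic adhesion molecule (4.16, SE 0.12), CD58, the ligand of CD2 (3.90, SE 0.20), S1PR4 (2.60, SE 0.10) and ITGB2 (2.16, SE 0.14) were also higher in VAL on the log2 scale. Transcripts of the hyaluronan receptor CD44 were nearly absent from OCI-LY1 with the empty vector, at 2 counts against 1037 in VAL, a ratio of 560 with a 95% counting interval of 155 to 4627. ENAH, an actin polymerase of the Ena/VASP family, had 1949 counts in VAL and 0 in OCI-LY1, at least 701-fold higher against a floor of 3 counts over the group. The same bound was at least 25.5-fold for ITGAX and 16.2-fold for the syndecan SDC4, and S1PR1, with 21 counts against 1, had a ratio of 22.7 (3.64 to 937). In the other direction, GPR183 was at 167 and 159.7 CPM in OCI-LY1 and 4.55 and 3.82 in VAL, a log2 difference of -5.29 (SE 0.09, edgeR adjusted p 6.77e-34). The coronin CORO2B (-3.85, SE 0.27), CXCR5 (-1.42, SE 0.05) and ITGB1 (-1.32, SE 0.06) were lower in VAL on the log2 scale too. ITGAX and ITGB2 are also carried by myeloid cells: the 6 myeloid markers summed to 2.24 to 3.08 CPM in VAL and at most 0.257 CPM in OCI-LY1, 5 of them under 1 CPM in every library, and their part in these differences was not tested. The calls of ITGAL and CD47 ended with a correction for GC content and length, those of CD47 and ARHGDIB also without OCI-LY1 empty vector replicate 2 (log2 differences of 0.13 for both).

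Within the lines the constructs changed fewer of these genes. In OCI-LY1, wild-type BCL7A against the empty vector gave 8 called genes of 36, 5 higher and 3 lower (22.2%, against 11.4% of all genes, 6.23% higher and 5.21% lower). The mutant against the empty vector gave 9, 5 higher and 4 lower (25.0%, against 19.6%, with 10.4% higher and 9.16% lower). ENAH is among those 5 higher, at 6 counts against 0, and was tested only because of its level in VAL. CD44, ITGAX, SDC4 and S1PR1, at or near 0 counts in OCI-LY1, are likewise among the 36. The direct comparison of wild type with mutant gave 6, 4 higher and 2 lower in the wild type (16.7%, against 3.05%, with 1.68% and 1.38%). In VAL the same comparisons gave 6 (5 higher and 1 lower, 16.7%, against 1.62%, with 0.885% and 0.733%), 4 (2 and 2, 11.1%, against 5.13%, with 2.50% and 2.63%) and 10 genes (9 and 1, 27.8%, against 9.07%, with 4.54% and 4.53%). The share for the OCI-LY1 mutant lay near its background. Any 2 of the 3 comparisons in a line share a group, so the counts are not independent. Over the tested genes of the set the median log2 fold change was between -0.07 and 0.10 in the 6 comparisons, beside -0.03 to 0.00 over all genes. GMFB was called in 5 of the 6 and ITGB2 in 4, and the 16 tested genes called in none are given by level below.

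Of these 43 calls, 13 held in every fit that left out 1 library and 30 missed the threshold in at least 1 such fit, in which a group had 1 library left. The count of VAL wild type against empty vector was 3 without VAL empty vector replicate 2, and 2 both with each line fitted alone and with DESeq2. That of VAL wild type against mutant was 5 without mutant replicate 2 and 6 without mutant replicate 1, but 19 without wild-type replicate 2. The 4 calls of the VAL mutant against empty vector fell to 2 without empty vector replicate 1, and to 0 without any other of its libraries and with each line alone. In OCI-LY1, wild type against empty vector gave 5 without empty vector replicate 1, the mutant against empty vector 5 without that library and 4 without mutant replicate 2, and wild type against mutant 3 without wild-type replicate 2 and 2 without mutant replicate 2.

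**Figure D2:**
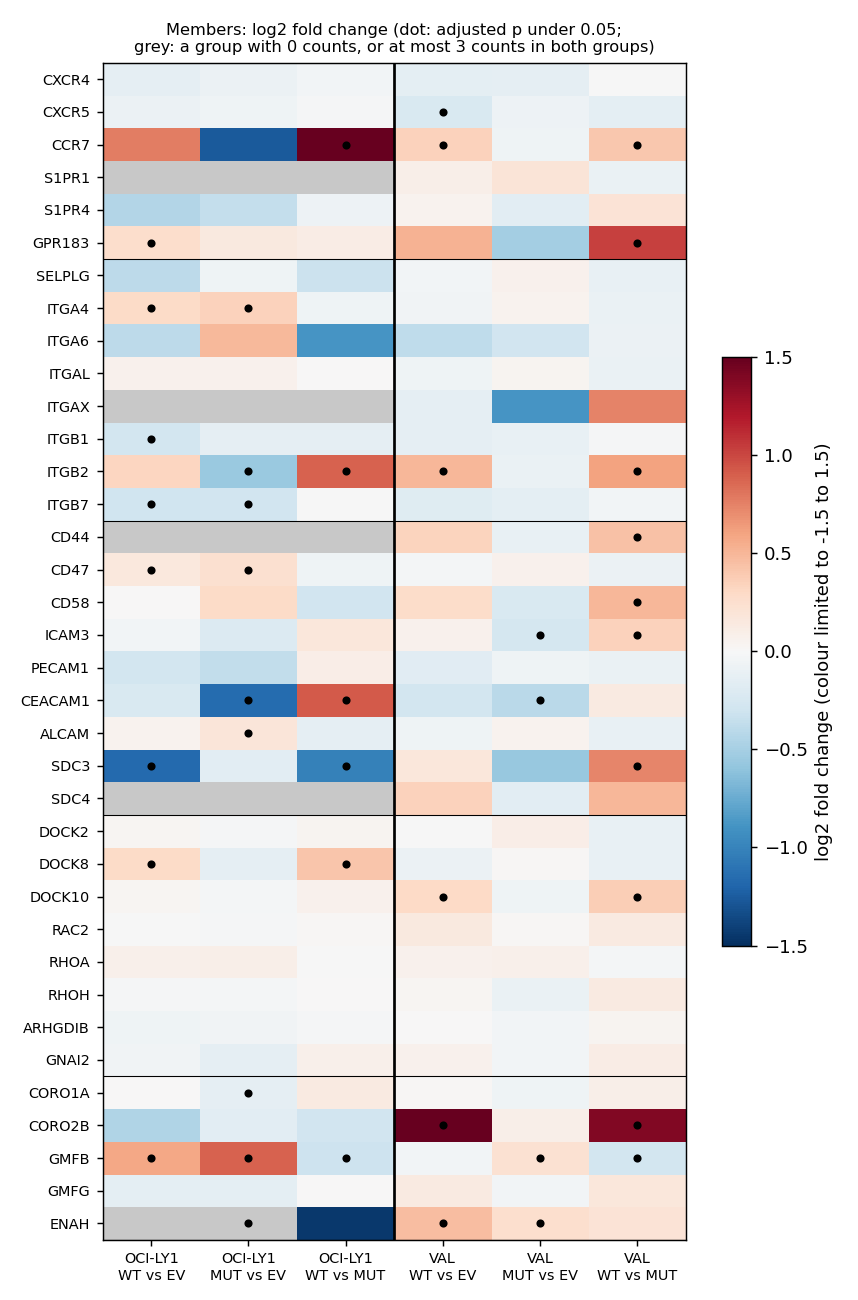
Log2 fold changes of the 36 tested genes (rows, by role) in the 6 comparisons of constructs (columns), with colour limited to -1.5 to 1.5 a dot where the adjusted p was under 0.05, and grey where a group had 0 counts or both had at most 3 (EV, empty vector; WT, wild type; MUT, mutant). Dots are most numerous in VAL wild type against mutant (10) and fewest in VAL mutant against empty vector (4).

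Promoters of 4 genes called in the comparisons of constructs are shown, 1 receptor, 1 integrin chain and 2 adhesion molecules, because lymphoid adhesion genes are known targets of ETS factors such as PU.1 and ETS1. Each is the 250 bases before the RefSeq transcription start on GRCh38.p14, written 5′ to 3′ on the strand of the gene (the minus strand for all 4). Capitals mark GAGGAA, a longer form of the ETS site, found on either strand, so that it can appear as TTCCTC. The shorter core GGAA also occurs in these windows, where it is neither marked nor counted.
CD58 (chr1:116571027-116571276): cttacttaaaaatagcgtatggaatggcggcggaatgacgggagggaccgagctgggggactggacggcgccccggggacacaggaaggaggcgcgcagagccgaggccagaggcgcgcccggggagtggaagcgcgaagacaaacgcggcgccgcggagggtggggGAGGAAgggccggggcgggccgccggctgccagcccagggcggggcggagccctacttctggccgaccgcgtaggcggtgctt
CEACAM1 (chr19:42528482-42528731): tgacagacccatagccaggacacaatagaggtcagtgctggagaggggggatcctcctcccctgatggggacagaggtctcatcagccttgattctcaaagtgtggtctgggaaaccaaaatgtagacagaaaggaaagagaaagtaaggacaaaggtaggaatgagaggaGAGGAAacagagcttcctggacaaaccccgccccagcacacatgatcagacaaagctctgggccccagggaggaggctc
ITGB7 (chr12:53207252-53207501): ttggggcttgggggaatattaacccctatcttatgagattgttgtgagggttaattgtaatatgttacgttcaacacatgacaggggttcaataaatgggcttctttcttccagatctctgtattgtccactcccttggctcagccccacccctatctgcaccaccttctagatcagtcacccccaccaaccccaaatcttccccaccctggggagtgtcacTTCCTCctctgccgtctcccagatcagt
GPR183 (chr13:99307400-99307649): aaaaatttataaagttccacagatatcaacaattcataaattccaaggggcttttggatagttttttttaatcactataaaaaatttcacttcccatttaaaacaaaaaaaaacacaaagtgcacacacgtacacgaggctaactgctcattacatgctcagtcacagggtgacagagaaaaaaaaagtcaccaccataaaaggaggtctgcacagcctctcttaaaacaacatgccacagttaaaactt
For GAGGAA, CD58, CEACAM1 and ITGB7 had 1 match each and GPR183 had 0. Of the 37 genes, 29 had a promoter in the RefSeq table, with 51 windows of that length. GAGGAA was in 22 of the 51 windows (43.1%), against 23.6% of all 35116 windows. The octamer ATGCAAAT was in 3 (5.88% against 1.63%), the E-box CACGTG in 3 (5.88% against 6.34%), the cAMP response element TGACGTCA in 0 (against 1.65%), and the NF-kB consensus in 7 (13.7% against 9.96%), among them the CEACAM1 window. No match in the 4 windows overlapped one of another motif, and a match is a description of the letters only.

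Among the chemoattractant receptors, CCR7 and GPR183 were higher with wild-type BCL7A than with the mutant in VAL, and GPR183 rose with wild-type BCL7A in OCI-LY1. In VAL, GPR183 was at 6.76 and 5.27 CPM with the wild type, 3.07 and 2.79 for the mutant and 4.55 and 3.82 with the empty vector. Both wild-type libraries lay above all others, and both mutant libraries below. The log2 difference of wild type to mutant was 1.03 (SE 0.16, edgeR adjusted p 3.04e-05). In OCI-LY1, where GPR183 is abundant, it was at 167 and 159.7 CPM with the empty vector, 192 and 198 with the wild type and 172 and 191 with the mutant. The wild type exceeded the empty vector by 0.26 on the log2 scale (SE 0.06, edgeR adjusted p 0.00170), while the mutant libraries lay between. Both GPR183 calls held under every alternative tried.

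CCR7 was at 26.6 and 26.02 CPM in VAL with the wild type, 20.7 and 18.9 for the mutant and 19.8 and 21.5 with the empty vector. The wild-type libraries were the highest of the line and the other groups overlapped. The wild type was higher by 0.41 against the mutant (SE 0.09, edgeR adjusted p 0.00206) and by 0.35 against the empty vector (SE 0.09, adjusted p 0.0260). The first call ended without mutant replicate 2 (0.35, adjusted p 0.0656). The second ended without empty vector replicate 1 (0.29, adjusted p 0.395) or wild-type replicate 1 (0.32, 0.107), with VAL alone (0.0544) and with DESeq2 (0.361). CCR7 was scarce in OCI-LY1, at 0.587 and 0.544 CPM with the empty vector, 0.855 and 1.09 with the wild type and 0.297 and 0.169 with the mutant. The 3 groups did not overlap there, with the wild-type libraries highest and the mutant libraries lowest, and wild type and mutant differed by 2.03 (SE 0.41, edgeR adjusted p 0.00319). The call ended without wild-type replicate 2 (1.85, adjusted p 0.068) or mutant replicate 2 (1.69, 0.155).

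CXCR5, the follicle receptor, was called once. It was at 66.8 and 73.7 CPM in VAL with the empty vector, 59.3 and 60.6 with the wild type and 69.2 and 64.0 with the mutant. The wild-type libraries were lowest, 0.23 below the empty vector (log2 -0.23, SE 0.06, edgeR adjusted p 0.0311). That call ended without empty vector replicate 2 (adjusted p 0.306), without wild-type replicate 1 (0.064) and with VAL alone (0.137). CXCR4 passed in no comparison of the main fit. It was at 325 and 333 CPM in OCI-LY1 with the empty vector, 299 and 302 with the wild type and 303 and 316 with the mutant. In VAL the values were 274 and 265, 247 and 237, and 242 and 247. The empty vector libraries were the highest in both lines, the smallest edgeR adjusted p was 0.0565, and the 95% intervals of the 6 log2 differences lay between -0.25 and 0.08. S1PR4 ranged from 3.47 to 5.27 CPM in OCI-LY1 and from 25.98 to 32.6 in VAL, and S1PR1 stayed at or under 0.664 CPM.

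Among the integrins, ITGA4, ITGB2 and ITGB7 carried most of the calls. ITGA4, the alpha chain of VLA-4 and of the gut-homing integrin alpha4 beta7, was at 128 and 125 CPM in OCI-LY1 with the empty vector, 156 and 153 with the wild type and 155 and 167 with the mutant. All 4 BCL7A libraries exceeded both controls, by 0.29 on the log2 scale for the wild type (SE 0.05, edgeR adjusted p 0.000186) and 0.35 for the mutant (SE 0.05, adjusted p 4.65e-06). Both calls held under every alternative. VAL had 134 and 124, 122 and 126, and 134 and 133 CPM, and the groups overlapped.

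Both beta chains that ITGA4 can pair with went the other way in OCI-LY1. ITGB1 was at 154 and 141 CPM with the empty vector, 122 and 123 with the wild type and 132 and 137 with the mutant. The control libraries were highest, and the wild type was lower by 0.27 (log2 -0.27, SE 0.05, edgeR adjusted p 0.000815). ITGB7 was at 45.2 and 42.1 CPM with the empty vector, 35.8 and 35.1 with the wild type and 36.1 and 35.1 with the mutant. Both BCL7A groups lay below the controls, with log2 differences of -0.30 (SE 0.06, edgeR adjusted p 0.00140) and -0.29 (SE 0.06, adjusted p 0.000879). Without empty vector replicate 1, the wild-type calls of ITGB1 (-0.20, adjusted p 0.0846) and ITGB7 (-0.24, 0.068) ended, and with the GC correction so did the mutant call of ITGB7 (-0.12, 0.167). In VAL, ITGB7 was at 117 and 113, 103 and 99.99, and 107 and 101 CPM, and ITGB1 at 51.9 to 61.6 CPM, and neither was called in the main fit.

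ITGB2, the beta chain of the leukocyte integrins such as LFA-1, was highest with wild-type BCL7A in both lines. In VAL it was at 17.2 and 17.3 CPM with the wild type, 11.3 and 11.5 for the mutant and 12.7 and 11.8 with the empty vector. The wild-type libraries stood apart from the other 4. The log2 difference was 0.60 to the mutant (SE 0.10, edgeR adjusted p 0.000133), which held under every alternative, and 0.50 to the empty vector (SE 0.10, adjusted p 0.00338), which ended without empty vector replicate 2 (0.44, 0.0677) and with DESeq2 (0.121). In OCI-LY1 it was at 3.16 and 3.65 CPM with the wild type, 2.08 and 1.61 for the mutant and 2.60 and 2.85 with the empty vector. The 3 groups did not overlap. Wild type and mutant differed by 0.88 (SE 0.19, edgeR adjusted p 0.00533), a call that ended without wild-type replicate 2 (0.78, 0.116) or mutant replicate 2 (0.71, 0.233). The mutant was lower than the empty vector by 0.56 (log2 -0.56, SE 0.20, adjusted p 0.0398), and this ended without either control library (adjusted p 0.0869 and 0.205), without mutant replicate 2 (0.364), without a filter on low counts, with the GC correction and with DESeq2. ITGB2 shares exon sequence with ITGB2-AS1 on the opposite strand, and the strand setting of the counting is not given in the sources used here.

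The other integrin genes were not called in the main fit. ITGAL was at 231 to 249 CPM in OCI-LY1 and 193 to 216 in VAL, with all 95% intervals between -0.20 and 0.16 on the log2 scale. ITGA6, a laminin receptor chain, stayed at or under 0.805 CPM in OCI-LY1 and at 0.832 to 1.23 in VAL. ITGAX had 0 counts in all OCI-LY1 libraries. In VAL it was at 1.82 and 1.39 CPM with the empty vector, 1.43 and 1.48 with the wild type and 0.871 and 0.868 with the mutant. SELPLG, the P-selectin ligand, was at 3.08 to 4.74 CPM in all 12 libraries.

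Of the other adhesion molecules, CD44, CD58, ICAM3 and SDC3 were higher with the wild type than with the mutant in VAL. CD44 was at 29.8 and 29.02 CPM with the wild type, 24.2 and 19.0 for the mutant and 22.5 and 24.3 with the empty vector. The wild-type libraries were highest and the others overlapped (wild type to mutant 0.44, SE 0.10, edgeR adjusted p 0.00247). CD58 was at 11.998 and 13.1 CPM, 8.67 and 9.09, and 10.5 and 10.3 in the same order. Here the 3 groups did not overlap (0.50, SE 0.12, edgeR adjusted p 0.00582). ICAM3, an LFA-1 ligand of resting leukocytes, was at 44.1 and 38.3 CPM with the wild type, 33.7 and 31.5 for the mutant and 39.0 and 39.3 with the empty vector. The mutant libraries were lowest, by 0.34 on the log2 scale against the wild type (SE 0.07, edgeR adjusted p 0.00205) and 0.26 against the empty vector (log2 -0.26, SE 0.07, adjusted p 0.0252). In the same comparison of wild type with mutant, 3 of the 7 B-cell markers were called higher and 0 lower (42.9%, against 9.07% of all genes). There, 4 of the markers had an unadjusted p under 0.05. In the mutant against the empty vector 0 markers were called higher and 4 lower (57.1%, against 5.13% of all genes). Their part in these values was not tested.

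None of these VAL calls held throughout. Those of CD44 (0.29, adjusted p 0.145) and ICAM3 (0.29, 0.0602) ended without mutant replicate 2, that of ICAM3 also without wild-type replicate 1 (0.23, 0.109), and that of CD58 without mutant replicate 1 (0.48, 0.0973) and with DESeq2 (0.0804). The lower ICAM3 of the mutant against the empty vector ended without each of the 4 libraries (adjusted p 0.0903 to 0.24), with VAL alone, with the GC correction and with DESeq2.

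SDC3, a heparan sulphate proteoglycan of the cell surface, differed between wild type and mutant in opposite directions in the lines. In OCI-LY1 it was at 2.60 and 2.93 CPM with the empty vector, 1.497 and 0.956 with the wild type and 2.16 and 2.79 with the mutant. The wild-type libraries were lowest, by 1.17 against the empty vector (log2 -1.17, SE 0.24, edgeR adjusted p 0.000825) and 1.01 against the mutant (log2 -1.01, SE 0.24, adjusted p 0.0141). VAL had 2.69 and 3.05, 3.26 and 3.19, and 1.78 and 2.10 CPM. The mutant libraries were lowest there, and the wild type was higher than the mutant by 0.73 (SE 0.21, edgeR adjusted p 0.0244). Against the VAL empty vector neither the wild type (log2 0.17, edgeR adjusted p 0.825) nor the mutant (log2 -0.57, 0.126) was called. The OCI-LY1 calls ended without wild-type replicate 2 (adjusted p 0.0565 and 0.261), the second also without mutant replicate 2 (0.355), and the VAL call ended without wild-type replicate 1 (0.127), mutant replicate 1 (0.246) or mutant replicate 2 (0.0632).

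CEACAM1, an inhibitory adhesion receptor, was lower with the mutant in both lines. In OCI-LY1 it was at 4.78 and 3.64 CPM with the empty vector, 3.63 and 3.52 with the wild type and 1.61 and 2.16 with the mutant. Both mutant libraries lay below the other 4, by 1.16 against the empty vector (log2 -1.16, SE 0.19, edgeR adjusted p 2.42e-05), which held under every alternative. The wild type exceeded the mutant by 0.92 (SE 0.20, edgeR adjusted p 0.00523), which ended without wild-type replicate 1 (0.90, 0.0689) or mutant replicate 1 (0.73, 0.0837). VAL libraries were at 11.97 and 13.2, 10.7 and 10.3, and 9.75 and 9.36 CPM. The controls were highest and the mutant libraries lowest, with a log2 difference of -0.40 (SE 0.12, edgeR adjusted p 0.0368) that ended without each of the 4 libraries (adjusted p 0.0851 to 0.222) and with VAL alone (0.0594). CEACAM1 shares exon sequence with LIPE-AS1 on the opposite strand.

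CD47, the "do not eat me" ligand of SIRP-alpha, and ALCAM (CD166), a ligand of CD6, rose slightly in OCI-LY1. CD47 was at 139 and 129 CPM with the empty vector, 151 and 149 with the wild type and 151 and 165 with the mutant. All BCL7A libraries exceeded both controls, by 0.16 (SE 0.05, edgeR adjusted p 0.0397) and 0.24 (SE 0.05, adjusted p 0.00132). ALCAM was at 57.3 and 54.1, 56.6 and 59.0, and 59.8 and 66.6 CPM. Its mutant libraries were highest, by 0.18 over the empty vector (SE 0.06, edgeR adjusted p 0.0397). With the GC correction the 3 differences were 0.08, 0.09 and 0.08 and none was called. The wild-type call of CD47 also ended without each of the 4 libraries (adjusted p 0.0553 to 0.355), its mutant call without empty vector replicate 2 (0.0623) or mutant replicate 2 (0.0909), and the ALCAM call without either control (0.0604 and 0.275) or mutant replicate 2 (0.476). PECAM1 was at 1.31 to 2.18 CPM in OCI-LY1 and 30.4 to 35.1 in VAL, and SDC4 had 0 counts in OCI-LY1 and 0.822 to 1.38 CPM in VAL, with no call.

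**Figure D3:**
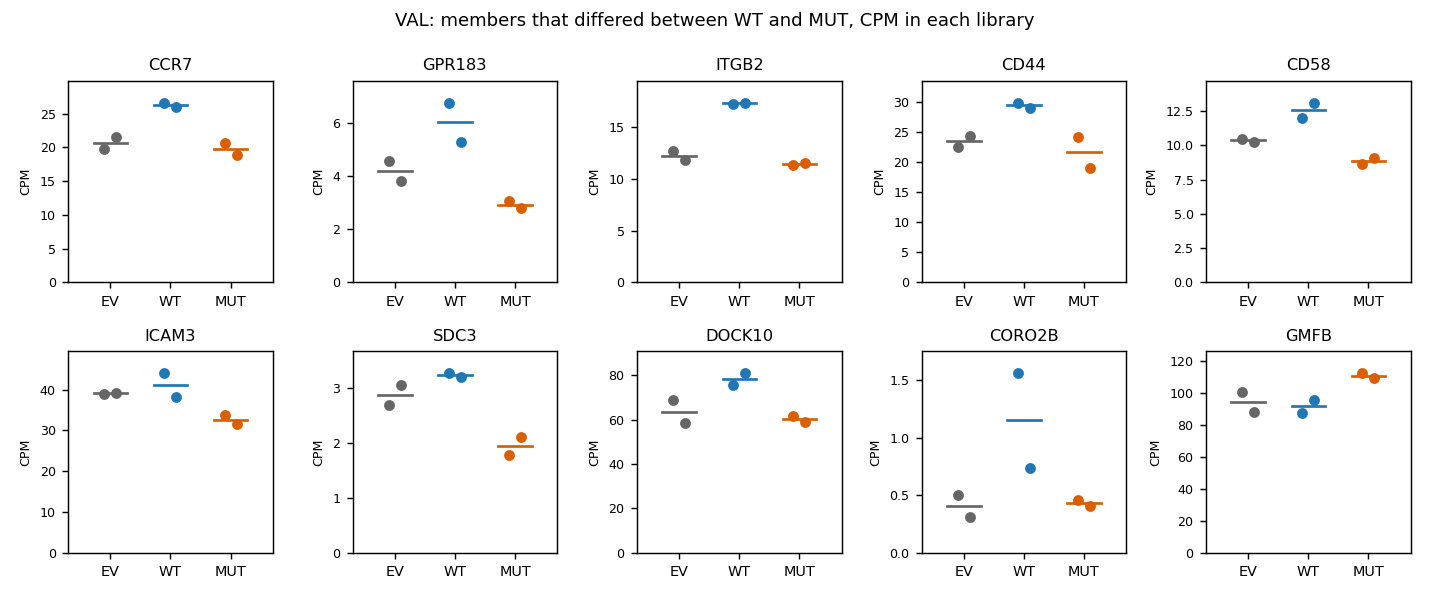
CPM in each VAL library (points) with the group mean (bar) for the 10 genes that differed between wild-type BCL7A and the mutant, with axes from 0. Each pair of wild-type libraries lies above the mutant pair, except for GMFB, where it lies below.

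In GTPase signalling the calls of the main fit were limited to 2 DOCK exchange factors, each in 1 line. DOCK8, an activator of CDC42 that B cells need for integrin clustering at the synapse, was at 97.0 and 94.5 CPM in OCI-LY1 with the empty vector, 115 and 119.6 with the wild type and 84.5 and 91.0 with the mutant. The 3 groups did not overlap, with the wild type highest and the mutant lowest. The wild type exceeded the empty vector by 0.29 (SE 0.06, edgeR adjusted p 0.000408) and the mutant by 0.42 (SE 0.06, adjusted p 1.09e-05), and both calls held under every alternative. In VAL, DOCK8 was at 187 and 187, 167 and 186, and 194 and 186 CPM, with no call. DOCK10, an exchange factor for CDC42 and RAC1, was at 75.7 and 81.0 CPM in VAL with the wild type, 61.9 and 59.2 for the mutant and 68.7 and 58.4 with the empty vector. The wild-type libraries were the highest and the other groups overlapped. The difference to the mutant, 0.37 (SE 0.07, edgeR adjusted p 0.000394), held under every alternative. The difference to the empty vector, 0.30 (SE 0.07, adjusted p 0.0102), ended without empty vector replicate 2 (0.18, 0.271) or wild-type replicate 2 (0.26, 0.0684), with VAL alone (0.059) and with DESeq2 (0.0568). In OCI-LY1, DOCK10 was at 42.1 to 48.1 CPM in all groups. DOCK8 shares exon sequence with C9orf66 on the opposite strand.

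The other 6 genes of this role were not called in the main fit. DOCK2, the RAC activator of lymphocyte migration, was at 250.3 to 265 CPM in OCI-LY1 and 298 to 342 in VAL, and its target RAC2 at 156 to 164 and 179 to 217. RHOA was at 598 to 649.9 and 445 to 486 CPM, the GTPase-deficient RHOH at 160.1 to 166 and 114 to 127, ARHGDIB at 892 to 977 and 1029 to 1111, and the Gi alpha chain GNAI2 at 254 to 291 and 199.97 to 222. None passed there in any of the 6 comparisons, where the smallest adjusted p was 0.0528, for GNAI2 in OCI-LY1 mutant against empty vector (log2 -0.13). All 95% intervals of these 6 genes lay between -0.22 and 0.26 on the log2 scale. With the GC correction RHOA was called higher than with the empty vector for the OCI-LY1 wild type (0.16, edgeR adjusted p 0.0056) and mutant (0.18, 0.00132). It was then also called for the VAL mutant (0.13, 0.0402), and RAC2 for the OCI-LY1 mutant (0.15, 0.024).

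Among the actin regulators GMFB, the glia maturation factor that debranches Arp2/3 networks, was called most often. In OCI-LY1 it was at 71.0 and 70.7 CPM with the empty vector, 106 and 106 with the wild type and 127 and 136 with the mutant. The 3 groups did not overlap, with the mutant highest. The log2 differences to the empty vector were 0.58 (SE 0.06, edgeR adjusted p 1.89e-08) and 0.89 (SE 0.06, adjusted p 2.99e-13), and the wild type was lower than the mutant by 0.31 (log2 -0.31, SE 0.06, adjusted p 0.00120). With the GC correction the first 2 were 0.41 and 0.60 and were still called, and the last ended without mutant replicate 2 (-0.26, adjusted p 0.103). In VAL it was at 100.4 and 88.2 CPM with the empty vector, 87.4 and 95.5 with the wild type and 112 and 109 with the mutant. The mutant libraries were again highest, by 0.23 over the empty vector (SE 0.06, edgeR adjusted p 0.0149), and the wild type was lower than the mutant by 0.28 (log2 -0.28, SE 0.06, adjusted p 0.00198). The first VAL call ended without empty vector replicate 2 (0.13, 0.342), mutant replicate 1 (0.238) or mutant replicate 2 (0.0809) and with VAL alone. The second ended without mutant replicate 1 (-0.25, 0.0699) and with the GC correction (-0.13, 0.066). GMFB had the lowest GC content of the set, at 33.4%. Its relative GMFG, the form of blood cells, was at 81.9 to 97.7 CPM in OCI-LY1 and 61.7 to 75.5 in VAL, with no call.

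ENAH rose in VAL. It was at 48.1 and 40.1 CPM with the empty vector, 61.6 and 59.5 with the wild type and 53.9 and 51.1 with the mutant. The 3 groups did not overlap, with the wild type highest. The wild type exceeded the empty vector by 0.46 (SE 0.07, edgeR adjusted p 0.000113), under every alternative. The mutant exceeded it by 0.25 (SE 0.07, adjusted p 0.0324), which ended without empty vector replicate 2 (0.11, 0.541), without either mutant library (0.389 and 0.109), with VAL alone, with the GC correction and with DESeq2. In OCI-LY1 the counts were 0, 2 and 6 over both libraries with the empty vector, the wild type and the mutant. The mutant stood 2.02-fold above the floor of 3 counts, with no allowance for the counting error of its 6 counts. Its call against the empty vector (edgeR adjusted p 0.0428) ended without either control, without mutant replicate 2 and with the GC correction.

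CORO2B was at 1.56 and 0.739 CPM in VAL with the wild type, 0.457 and 0.411 for the mutant and 0.501 and 0.314 with the empty vector. Both wild-type libraries were above the others but far apart. The differences were 1.49 to the empty vector (SE 0.38, edgeR adjusted p 0.0341) and 1.39 to the mutant (SE 0.37, adjusted p 0.0149). Without wild-type replicate 1 they were 0.85 (adjusted p 0.503) and 0.76 (0.462). The first also ended without either control (0.112 and 0.24), the second without either mutant library (0.107 and 0.0984), and both with VAL alone. In OCI-LY1 CORO2B was at 5.91 and 5.94, 4.28 and 4.39, and 5.25 and 5.37 CPM, where the wild-type libraries were lowest with no call. CORO1A was at 488 and 508, 501 and 492, and 462 and 441 CPM in OCI-LY1, with the mutant libraries lowest (log2 -0.14, SE 0.05, edgeR adjusted p 0.0396). That sign turned to 0.07 with the GC correction, and the call ended in all but 2 of the other settings, with adjusted p between 0.0504 and 0.347 where it ended. CORO1A stood at 1066 to 1158 CPM in VAL.

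**Figure D4:**
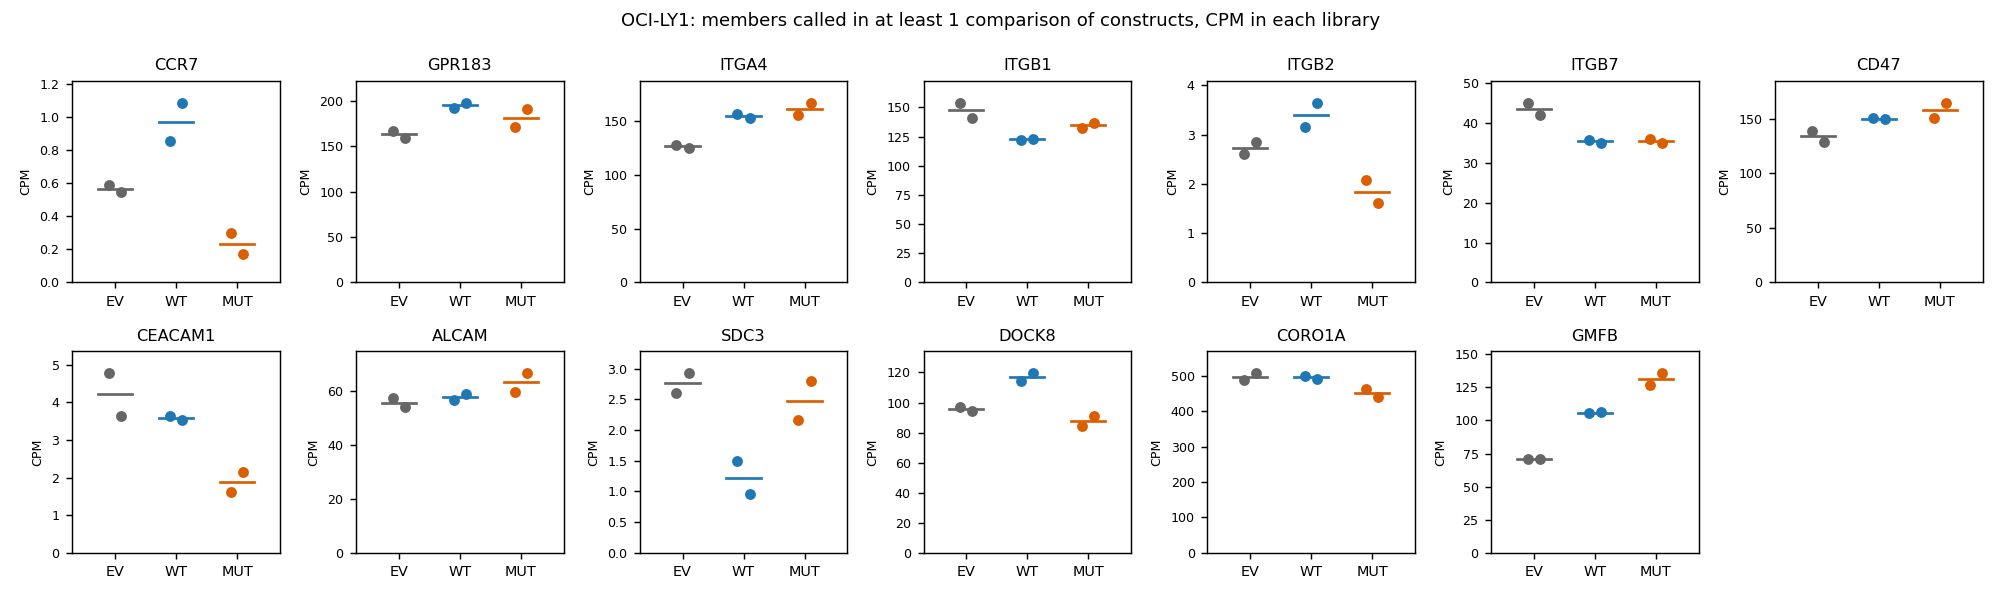
CPM in each OCI-LY1 library (points) with the group mean (bar), with axes from 0. Shown are the genes called in at least 1 comparison of constructs in that line, except ENAH. ITGA4, CD47 and GMFB stand higher in all libraries with either BCL7A form than with the empty vector, ITGB1 and ITGB7 stand lower, and DOCK8 is highest with the wild type.

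The effects of the constructs differed between the lines for some of these genes, by the interaction term of the fit. For wild type against empty vector 5 of 36 passed, 2 higher and 3 lower in VAL than in OCI-LY1 (3.89% of all genes, 1.25% higher and 2.63% lower): ITGA4 (difference of log2 fold changes -0.34, SE 0.07, edgeR adjusted p 0.00414), DOCK8 (-0.38, SE 0.08, 0.00232), GMFB (-0.62, SE 0.08, 2.77e-05), SDC3 (1.34, SE 0.31, 0.00890) and CORO2B (1.94, SE 0.42, 0.00433). For mutant against empty vector 2 passed, both lower in VAL (1.51% of all genes, 1.23% lower): GMFB (-0.66, SE 0.08, 9.76e-06) and ITGA4 (-0.30, SE 0.07, 0.0244). For wild type against mutant 4 passed, 3 higher and 1 lower (0.451% of all genes, 0.270% and 0.182%): GPR183 (0.93, SE 0.17, 0.00309), SDC3 (1.74, SE 0.32, 0.00379), CORO2B (1.69, SE 0.41, 0.0485) and DOCK8 (-0.52, SE 0.08, 0.000108). Those of GMFB and DOCK8 and the wild-type one of ITGA4 held under every alternative. The mutant difference of ITGA4 ended without OCI-LY1 empty vector replicate 1 (adjusted p 0.0691) or 2 (0.138), OCI-LY1 mutant replicate 2 (0.25), VAL empty vector replicate 1 (0.0914) or VAL mutant replicate 2 (0.0619). That of GPR183 ended without VAL wild-type replicate 1 (0.73, 0.0983) or VAL mutant replicate 2 (0.0572). The first of SDC3 ended without OCI-LY1 empty vector replicate 2 (0.0537) or wild-type replicate 2 (0.117), the second without OCI-LY1 wild-type replicate 2 (0.0701) or mutant replicate 2 (0.0744). For CORO2B the first ended without VAL wild-type replicate 1 (1.27, 0.179), and the second without any 1 of the OCI-LY1 wild-type and mutant libraries (adjusted p 0.0942 to 0.146), VAL wild-type replicate 1 (1.05, 0.643) or either VAL mutant library (0.202 and 0.27).

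Fold changes moved with the GC content of the transcripts over all genes, which touches this set because its genes run from 33.4% (GMFB) to 67.9% (S1PR4). Across genes, Spearman's rho of fold change with GC content was -0.27 and -0.41 for wild type and mutant against empty vector in OCI-LY1 and 0.26 for wild type against mutant. In VAL it was 0.11, -0.18 and 0.24. A correction of each library for its trend with GC content and length brought these to between -0.03 and 0.00. It moved the split of all called genes from 1063 higher and 888 lower to 1697 and 726 for the OCI-LY1 wild type, and from 1776 and 1562 to 2303 and 753 for the mutant. Wild type against mutant in OCI-LY1 went from 286 and 235 to 256 and 364. In VAL the mutant against empty vector went from 427 and 448 to 925 and 429, and wild type against mutant from 774 and 773 to 595 and 923. Within the set, the correction moved the OCI-LY1 mutant calls most: ITGA4, CEACAM1 and GMFB were called both ways, ITGB2, ITGB7, CD47, ALCAM, CORO1A and ENAH were called only without it, and ITGAL, ITGB1, RAC2 and RHOA only with it. ITGB1 was then lower with the mutant (-0.21, edgeR adjusted p 0.000303) as with the wild type. For the OCI-LY1 wild type against empty vector, ITGAL (0.12, adjusted p 0.0302) and RHOA (0.16, 0.0056) joined the calls and CD47 left them. GPR183 (0.17, 0.0118) joined those of wild type against mutant in OCI-LY1. In VAL, CXCR4 (-0.15, adjusted p 0.0393), GPR183 (0.55, 0.0126), ITGB7 (-0.20, 0.00814) and CD44 (0.34, 0.0260) joined the calls of wild type against empty vector, and CXCR5 (-0.21, 0.00483), ITGAL and ENAH (0.32, 0.00207) those of wild type against mutant. GPR183 with the VAL mutant fell below the empty vector by 0.50 (log2 -0.50, adjusted p 0.0377), and RHOA was called higher there (0.13, 0.0402).

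Companion lists of the same pathways, which hold none of the 37 genes, are given by their counts and were not tested as sets. Against the empty vector, 11.4% of all genes were called in OCI-LY1 for the wild type and 19.6% for the mutant, and in VAL 1.62% and 5.13%. Between wild type and mutant in VAL 9.07% were called. Of 32 tested genes of actin assembly, 9 were called higher and 3 lower in OCI-LY1 for the wild type (37.5%) and 7 and 6 with the mutant (40.6%). In VAL they were 2 and 0 for the wild type and 0 and 2 with the mutant (6.25% each, the second near the share of all genes). PFN2, a profilin, was at 29.3 and 30.7 CPM in OCI-LY1 with the empty vector, 20.4 and 21.2 with the wild type and 31.1 and 30.0 with the mutant (wild type to mutant -0.55, SE 0.07, edgeR adjusted p 1.27e-05). RDX (radixin), which ties membrane proteins to actin, was at 68.9 and 64.5, 50.6 and 53.2, and 69.7 and 76.0 CPM in the same order. For both, the wild-type libraries were lowest. VASP, which like ENAH extends actin filaments, was highest with the wild type in VAL, at 65.0 and 60.5 CPM against 48.5 and 46.0 with the mutant and 51.2 and 47.5 with the empty vector (wild type to mutant 0.41, SE 0.06, edgeR adjusted p 2.54e-05).

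Of 12 tested selectins, integrin ligands and other adhesion receptors, 3 were called higher and 0 lower in VAL with the wild type against the empty vector (25.0%, against 1.62% of all genes). With the mutant against the empty vector 1 was called higher and 4 lower (41.7%, against 5.13%), and for the wild type against the mutant 3 and 0 (25.0%, against 9.07%). In OCI-LY1 the shares were 25.0% for the wild type and 16.7% for the mutant, against 11.4% and 19.6%. ICAM1, the main ligand of LFA-1, was at 56.5 and 50.3 CPM in VAL with the wild type and 38.6 and 36.1 with the mutant (0.52, SE 0.07, edgeR adjusted p 1.57e-06). CD99 was at 16.8 and 16.4 CPM in VAL with the wild type and 9.88 and 11.7 with the empty vector (0.62, SE 0.10, adjusted p 0.000150). It was also called higher with the mutant than with the empty vector (0.38), a call that ended under 4 alternatives. Of 7 tested chemokines, 3 were called higher and 0 lower in VAL with the wild type against the mutant (42.9%, against 9.07% of all genes). CCL17 was at 2.67 and 2.54 against 1.08 and 0.776 CPM (1.47, SE 0.29, edgeR adjusted p 0.00120). The calls of CCL3 and CCL22 each ended under 6 alternatives, the correction for GC content and length among them. That of CCL17 ended under 0 of the 10 alternatives that gave it a value. Of 6 other receptors, 1 was called in that comparison (16.7%): ACKR3, the scavenger receptor of CXCL12, at 16.5 and 14.2 against 7.93 and 7.35 CPM (1.00, SE 0.13, adjusted p 2.10e-06).

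Of 10 genes of the GNA13 and RHOA pathway, which confines germinal centre B cells, 3 were called higher and 0 lower in OCI-LY1 for the wild type (30.0%, against 11.4% of all genes) and 4 and 1 for the mutant (5 of the 10, against 19.6%). GNA13 was at 157 and 165 CPM with the empty vector, 192 and 189 with the wild type and 211 and 226 with the mutant. All BCL7A libraries exceeded the controls (0.25, SE 0.05, edgeR adjusted p 0.000943, and 0.44, SE 0.05, adjusted p 4.44e-08). Of 28 RAC and CDC42 regulators, OCI-LY1 had 5 higher and 2 lower for the wild type and 6 and 1 for the mutant, 25.0% each, which for the mutant was near the share of all genes. The kinase PAK2 was at 314 and 322, 382 and 377, and 392 and 401 CPM there (0.26, SE 0.05, edgeR adjusted p 0.000500, and 0.32, SE 0.05, adjusted p 1.16e-05). Of 17 genes of integrin activation, OCI-LY1 had 2 higher and 2 lower for the wild type (23.5%) and 2 and 5 for the mutant (41.2%). In VAL wild type against mutant the counts were 2 and 0 (11.8%, near the 9.07% of all genes), with the adaptor SKAP1 at 3.26 and 2.31 against 1.04 and 0.914 CPM (1.51, SE 0.28, edgeR adjusted p 0.000480). Of 16 G protein subunits and RGS proteins, 2 were called for the wild type in each line (12.5%, near the 11.4% of all genes in OCI-LY1 and against 1.62% in VAL). The gamma chain GNG7 fell with the wild type in both lines, from 32.9 and 34.2 to 21.9 and 20.8 CPM in OCI-LY1 and from 32.9 and 30.1 to 23.1 and 21.8 in VAL (log2 -0.65, SE 0.08, edgeR adjusted p 1.92e-07, and -0.49, SE 0.08, adjusted p 0.000126). In VAL it was also called lower with the mutant than with the empty vector (log2 -0.27), a call that ended under 5 alternatives. Of 9 other integrin subunits, at most 2 were called in any comparison of constructs within a line (2 with the OCI-LY1 mutant, 22.2%, near the 19.6% of all genes). Between the lines with the empty vector 4 were called higher and 1 lower in VAL (55.6%, against 73.4%). The naming rule gave 25 genes of these lists with 62 calls, 24 of which held under every alternative that gave a value. The calls printed with an SE here are among those 24. Those of CCL17 and SKAP1 had a value under 10 alternatives and the others under 11.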

How the data were processed

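Messenger RNA of 12 libraries was analysed from the deposited counts, which hold whole-number reads per gene (1 table for each library; per the file headers, Ensembl identifiers and a value). Build GRCh38 (hg38) and the tools STAR (2.6.1b), HTSeq (0.11.2), edgeR, DESeq2 and R (3.6.1) are named per the submitters' processing notes. Which annotation was counted, whether by strand, and with what filter is not given in the sources used here. The 5 closing lines of each table, which name no gene, were left out of library sizes and tests. Their shares were taken of the gene counts and these 5 lines together. They held 8.61% to 10.8% reads in no feature, 2.32% to 2.55% ambiguous reads and 3.01% to 6.90% alignments of low quality. Reads not aligned made up 0.240% to 0.413% and those not unique 7.60% to 9.86%.

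Of the 60603 genes, 58483 were found in GENCODE 29 (GRCh38) once identifier versions were dropped; that annotation gave coordinates, exon lengths and GC content (known for 98.9% of genes tested). Counts were scaled by trimmed mean of M values and filtered with a minimum count of 10 in edgeR 4.0.16 (R 4.3.3). A robust quasi-likelihood model over all 12 libraries with 6 group means was fitted to 17057 genes, with 6 residual degrees of freedom (median 35.2 with information shared between genes) and a common biological coefficient of variation of 3.7%. Tests were two-sided, and p-values were adjusted by Benjamini-Hochberg over the whole table of each contrast, called under 0.05. There were 10 contrasts: the 3 pairs of constructs in each line, VAL against OCI-LY1 with the empty vector, and the differences of the construct effects between the lines. CPM (counts per 1000000 scaled gene counts) was computed here. Counting intervals (exact, 95%) cover counting error only. Bounds set a group with 0 counts to the floor of 3 counts and leave out the counting error of the other group.

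The 37 genes, their roles and the companion lists were chosen with earlier results of these data known. Every one of the 37 is named. Those called within a line are given in every library of that line, and up to 3 genes per companion list with the smallest p could be named. Not every gene named by that rule is reported here. The alternatives were RLE scaling, a filter at 1 CPM, no filter, each line alone, the replicate number as a block, a correction for GC content and length (mgcv 1.9.3), DESeq2 1.42.0, and leaving out each library of a contrast in turn. A group left with 1 library was taken to vary like the others. The fit was also run on simulated counts with known changes in abundant genes only, and the outcome is not reported here. All genes had the same spread there, so that run does not cover scarce genes or spreads that differ between genes. Promoters came from the RefSeq table (GRCh38.p14), which gave none for CCR7, SELPLG, ITGAL, ITGAX, ITGB2, PECAM1, RAC2 and GMFB. In the annotation, 12 of the 37 genes overlap an exon of a gene on the opposite strand. They are CXCR5, ITGA6, ITGAL, ITGB1, ITGB2, ITGB7, CD44, ICAM3, CEACAM1, DOCK8, RHOA and CORO1A.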

Additional observations from a re-analysis of the deposited data

Results flagged for a closer look

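Effects of the constructs differed between the lines, by the interaction term of the edgeR fit, in 11 cases. For wild-type BCL7A against empty vector the difference of log2 fold changes, VAL minus OCI-LY1, was -0.34 for ITGA4 (0.29 in OCI-LY1 and -0.05 in VAL), -0.38 for DOCK8 (0.29 and -0.09), -0.62 for GMFB (0.58 and -0.04), 1.34 for SDC3 (-1.17 and 0.17) and 1.94 for CORO2B (-0.45 and 1.49). For the mutant against empty vector it was -0.30 for ITGA4 (0.35 and 0.05) and -0.66 for GMFB (0.89 and 0.23). For wild type against mutant it was 0.93 for GPR183 (0.11 and 1.03), 1.74 for SDC3 (-1.01 and 0.73), 1.69 for CORO2B (-0.29 and 1.39) and -0.52 for DOCK8 (0.42 and -0.11). Line and day after transduction cannot be told apart in these differences. Groups of 2 libraries allow no check for a single library that stands apart.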

How the results depend on the processing

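Of the 43 calls within a line, 12 held under every alternative, 31 ended under at least 1, and that of CORO1A in OCI-LY1 mutant against empty vector also turned sign, to 0.07, with the GC and length correction. The same correction turned FERMT3 (0.04) and VASP (0.02) in that comparison. By setting, 42 of 43 calls held with RLE scaling, 41 with no filter, 42 with the stricter filter, 42 with the replicate block, 33 of 42 with each line alone, 33 of 43 with the GC correction and 29 of 39 with DESeq2. Of the 33 calls between the lines 30 held throughout, that of S1PR1 in the 9 settings that gave it a value and the others in 10. Of the 11 differences of effects 5 held throughout.

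Counts of called genes moved by over 1.5 times in these settings. VAL wild type against empty vector gave 2 with each line alone, 10 with the GC correction and 2 with DESeq2, against 6. VAL mutant against empty vector gave 0 with each line alone, where 10 were at an unadjusted p under 0.05 in the main fit. The difference between the lines gave 8 with the GC correction and 3 with DESeq2 for wild type against empty vector (5), and 2 with DESeq2 for wild type against mutant (4).

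Leaving out 1 library at a time gave 5 to 8 calls for OCI-LY1 wild type against empty vector, 4 to 9 for mutant against empty vector and 2 to 5 for wild type against mutant. In VAL it gave 3 to 7, 0 to 2 and 5 to 19. It gave 31 to 33 between the lines, and 4 to 8, 1 to 3 and 2 to 6 for the differences of effects in the same order. For the companion lists, 101 of 216 counts without a library and 312 of 378 under other settings lay within 1.5 times the main count.

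Libraries with the same replicate number did not deviate together within a line (correlations of -0.07 to 0.07), so the numbers were not taken as pairs. With the replicate block the counts were 8, 8 and 6 in OCI-LY1, 7, 4 and 11 in VAL, 33 between the lines and 5, 3 and 4 for the differences of effects. Scaling moved the median of all genes by less than 0.1 on the log2 scale. Genes at a few counts per library (S1PR1, CD44, ITGAX, SDC4 and ENAH in OCI-LY1) are given by a lower bound or a wide counting interval where their levels are compared, which is what their depth allows. They are still counted among the edgeR calls between the lines, and ENAH also among those of the OCI-LY1 mutant against empty vector.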
